A study of Arabidopsis thaliana with 8 samples.

Results

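The genes described here are 44 regulators of the cell cycle and of endoreduplication in Arabidopsis thaliana: cyclins, cyclin-dependent kinases (CDKs), CDK inhibitors, E2F factors with the retinoblastoma-related protein RBR1, activators of the anaphase-promoting complex, and replication factors. They were taken by locus identifier from a fixed list, and 34 of the 44 had a row in a count table of 17710 loci (17921 gene models). Shoots were taken from seedlings grown for 7 days on vertical agar plates with 16 h of light and 8 h of dark, and RNA-seq was done on 4 genotypes, Col, CA1-1, cae2-1 and their combination (cae2-1 CA1-1), with 2 biological replicates each. Only the 2 Col libraries (Columbia, the reference genotype, with no mutation or transgene named) could be matched to columns by name, so no genotypes were compared, and every value below comes from Col replicates 1 and 2. How many seedlings went into a library, and whether the replicates came from separate plates, is not given in the sources used here.

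In plant cells, D-type cyclins with CDKA drive entry into the cycle by phosphorylating RBR1, which frees E2F factors to switch on replication genes. A-type and B-type cyclins with CDKB kinases then carry cells through G2 and mitosis. In growing cotyledons and leaves many cells leave this cycle and copy their DNA without dividing, which is called endoreduplication. It is favoured by CDK inhibitors of the SIAMESE and KRP families and by CCS52A proteins, which direct the anaphase-promoting complex to destroy mitotic cyclins, and in the epidermis it goes along with large cell size.

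The column of replicate 1 held 2571129 counts and that of replicate 2 held 2408685, and the 34 genes took 1883 (0.0732%) and 2032 (0.0844%) of them. Each column header prints a larger number than this sum, and what that number counts is not given. Shares and levels here rest on the sums of the listed rows, so reads of genes without a row are left out. The shoot label was checked with 4 photosynthesis genes, which stood between 7165 and 10688 CPM (the usual scaling of a count to the library's size) as a mean, and with 9 root markers, of which 6 were listed at 0 in both libraries. CASP1, of the root endodermis, had 53 and 11 counts, CASP2, of the same tissue, 21 and 17, and the nitrate transporter gene NRT2.1 3 and 4. All 4 photosynthesis genes were higher in replicate 1, with a summed level of 42601 CPM against 22852 CPM in replicate 2. The 9 root markers summed to 30.9 and 12.9 CPM. In bulk shoots, fewer dividing cells and less RNA per dividing cell cannot be told apart.

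The listed cell cycle genes lay near the middle of all models in Col shoots, with a median of 11.8 CPM against 10.5 CPM, and none was among the highest. Of the 34 listed genes, 28 reached a mean of 5 CPM and 0 reached 100 CPM, while 59.7% and 11.1% of all models did. The highest in CPM were the D-type cyclin gene CYCD1;1 at 85.1 ± 56.7 CPM (SD, n = 2) and the kinase gene CDKA;1 at 85.0 ± 43.6 CPM, and the lowest was CYCD6;1, with 2 counts in each library. No listed gene was at 0 in either library. Another 10 genes had no row and were not analysed here: CYCD2;1, CYCD4;1, CYCB3;1, KRP4, E2FA, E2FC, RBR1, MCM2, MCM5 and MCM7. The missing rows include the hub RBR1 and all 3 of the fixed replicative helicase genes, so the summed levels below are those of the listed genes only.

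Levels of different genes were compared as CPM per kb of the listed transcript. On that scale SMR1 had the highest mean, at 75.7 ± 15.6, followed by CDKA;1 at 56.7 ± 29.1 and SIM at 55.8 ± 27.2, and the ranges of the 2 libraries overlapped among these 3 genes. CYCD3;1 at 43.4 ± 6.60 and KRP2 at 41.7 ± 10.6 came next, with ranges that overlapped as well. SMR1 stood above CYCD3;1 in both libraries. These 5 genes and CYCD1;1 lay at the 80.2nd percentile of all models or above. The B-type cyclins lay near or below the middle, between 1.57 and 6.37 CPM per kb, where the median of all models was 6.13.

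**Figure D1:**
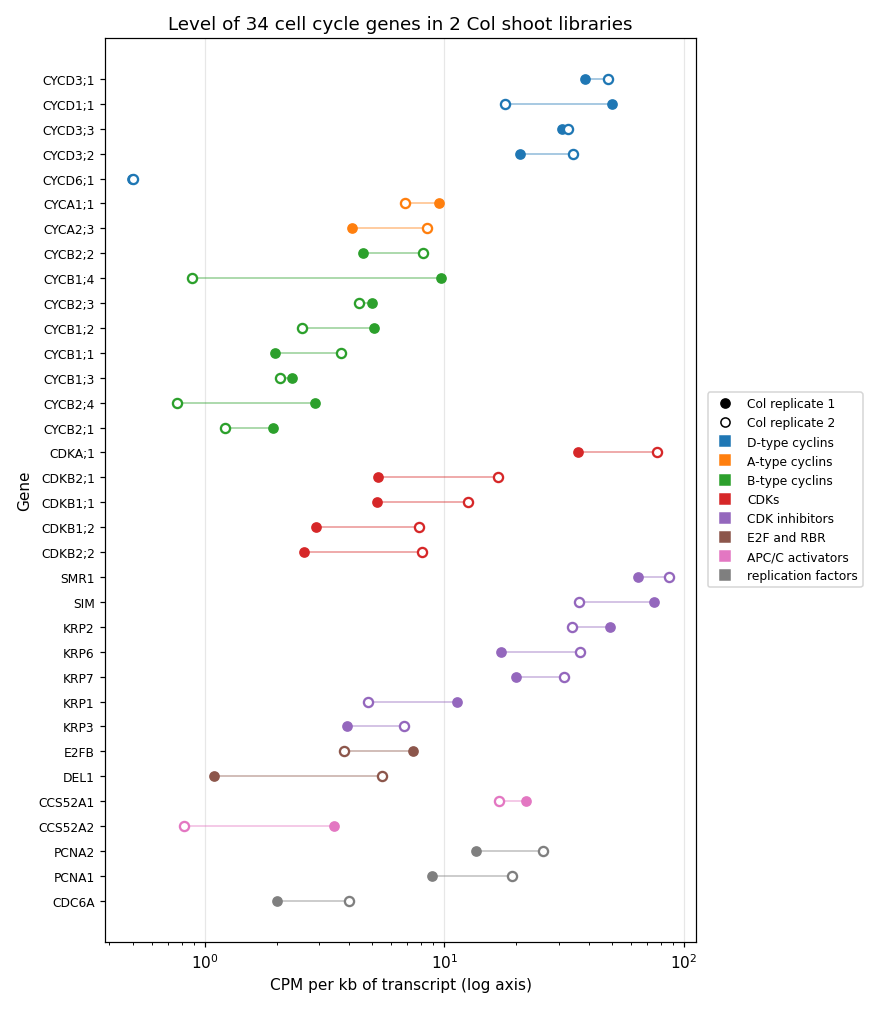
Level of the 34 listed genes in CPM per kb of transcript on a log axis, grouped and coloured by role, with Col replicate 1 as filled and replicate 2 as open circles joined by a line. All 5 CDKs have the open circle to the right, CYCB1;4 has the widest line, and the rightmost point is that of SMR1 in replicate 2.

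The libraries differed beyond counting noise at many genes. For each model at a mean of 5 CPM or more, an exact binomial test compared the split of its counts with that of the scaled library sizes, with Benjamini-Hochberg adjustment over all 10701 models. A call compares 2 libraries of 1 genotype, not conditions. It called 19 of the 28 tested cell cycle genes, where 55.3% of all models were called. Of these, 6 were higher in replicate 1 (27.6% of all models) and 13 in replicate 2 (27.7%). A difference of at least 2-fold, counted after adding 0.5 CPM to each library, was found for 12 (24.8% of all models), 4 of them higher in replicate 1 (13.5%) and 8 in replicate 2 (11.3%). The median log2 ratio of replicate 1 over replicate 2 was -0.69 over the 28 genes and -0.0034 over all models. Over all 34 listed genes, and over the 12 at 20 CPM or more, it was -0.36. The share called depends on the level, from 26.6% of models at 5 to 10 CPM to 89.4% at 300 CPM or more. Each ratio was therefore also placed among all models of like level, and only 2 of the 28 genes, CYCB1;4 and DEL1, fell outside the central 95%. The other 26 ratios were within the spread that these replicates show at other genes. CYCB1;4 (1.61 CPM in replicate 2) and DEL1 (2.01 CPM in replicate 1) reached the mean of 5 CPM only through the library in which they were higher. The same holds for CYCB1;2, CDKB1;2, CDKB2;2, KRP3 and CDC6A, each below 5 CPM in 1 library.

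D-type cyclins link growth signals to cell cycle entry, and all listed but CYCD6;1 stood above every listed A-type and B-type cyclin per kb. CYCD1;1 (AT1G70210) had 312 and 112 counts in replicates 1 and 2, or 125 and 45.1 CPM. It was 2.78-fold higher in replicate 1 (95% counting interval 2.23 to 3.48, adjusted p = 1.05e-21 by the exact binomial test), at the 93.0th percentile of ratios at like level. The CYCD3 genes, which prolong division and delay endoreduplication in leaves, were closer between the libraries. CYCD3;1 (AT4G34160) had 72.6 and 90.1 CPM and did not pass the test (adjusted p = 0.0579). CYCD3;3 (AT3G50070) had 44.5 and 47.1 CPM (adjusted p = 0.769 by the exact binomial test). CYCD3;2 (AT5G67260) had 30.9 and 51.1 CPM and was called, 1.65-fold higher in replicate 2 (1.24 to 2.22). Per kb, CYCD3;1 was 1.25 times as high as CYCD3;3 in replicate 1 and 1.47 times in replicate 2. Its order against CYCD1;1 changed, with a ratio of 0.776 in replicate 1 and 2.67 in replicate 2. CYCD6;1 (AT4G03270), known from asymmetric divisions in the root ground tissue, had 0.803 and 0.805 CPM, below the limit of 1.90 CPM that a listed 0 allows.

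A-type cyclins act in S phase and G2. CYCA1;1 (AT1G44110) had 43 and 31 counts (17.3 and 12.5 CPM, not called). CYCA2;3 (AT1G15570), which restrains endoreduplication together with CDKB1, had 21 and 43 counts. Its 8.43 and 17.3 CPM made it 2.05-fold higher in replicate 2 (1.19 to 3.64, adjusted p = 0.0125 by the exact binomial test). With 0.5 CPM added it fell just short of 2-fold (log2 ratio -0.996), so it is not among the 12.

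B-type cyclins, whose transcripts accumulate around mitosis, were low, and the 8 listed genes held 150 and 103 counts in all. Only 4 reached 5 CPM. The widest difference of the whole set was at CYCB1;4 (AT2G26760), with 44 and 4 counts, or 17.7 and 1.61 CPM. It was 11.0-fold higher in replicate 1 (3.99 to 42.0, adjusted p = 9.08e-09 by the exact binomial test), at the 99.5th percentile of the 1588 models at 5 to 10 CPM. Its 1.61 CPM in replicate 2 lay below the limit of 1.91 CPM that a listed 0 allows there, so the size of this ratio is poorly fixed. The other CYCB1 genes were not called or lay below the level tested. CYCB1;1 (AT4G37490), a widely used marker of dividing cells, had 8 and 15 counts, CYCB1;3 (AT3G11520) had 9 and 8, and CYCB1;2 (AT5G06150) had 22 and 11 (the last tested and not called, adjusted p = 0.127 by the exact binomial test). Among the CYCB2 genes, CYCB2;2 (AT4G35620) had the highest mean, with 19 and 34 counts (adjusted p = 0.0695), and CYCB2;3 (AT1G20610) had 25 and 22. CYCB2;1 (AT2G17620), at 8 and 5 counts, and CYCB2;4 (AT1G76310), at 15 and 4, lay below the level tested. Summed per kb, the CYCB2 genes stood at 14.4 in replicate 1 and 14.6 in replicate 2, and the CYCB1 genes at 19.0 and 9.19, a difference in which CYCB1;4 alone took 9.68 and 0.882.

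All 5 CDK genes were higher in replicate 2, each beyond counting noise and at least 2-fold. Of all tested models, 27.7% were called higher in replicate 2, and 11.3% were so at 2-fold or more. CDKA;1 (AT3G48750), the kinase used throughout the cycle, had 135 and 288 counts, or 54.2 and 115.9 CPM. It was 2.14-fold higher in replicate 2 (1.74 to 2.64, adjusted p = 4.85e-13 by the exact binomial test). CDKB kinases are specific to plants and act from G2 into mitosis. CDKB1;1 (AT3G54180) had 18 and 43 counts (7.22 and 17.3 CPM, 2.39-fold, 1.35 to 4.41), and CDKB1;2 (AT2G38620) had 9 and 24 (3.61 and 9.66 CPM, 2.67-fold, 1.20 to 6.54). CDKB2;1 (AT1G76540) had 18 and 57 counts (7.22 and 22.9 CPM, 3.17-fold, 1.84 to 5.73), and CDKB2;2 (AT1G20930) had 9 and 28 (3.61 and 11.3 CPM, 3.12-fold, 1.43 to 7.51). In replicate 1, CDKB1;2 and CDKB2;2 lay below 5 CPM, so they reached the level tested only through replicate 2. The counting intervals of the 4 CDKB genes overlapped that of CDKA;1. The log2 ratios ran from -1.60 to -1.09, between the 3.23rd and the 9.07th percentile of models at like level, so each gene alone lay inside the central 95%. Per kb, CDKA;1 was 2.25 times the sum of the 4 CDKB genes in replicate 1 and 1.71 times in replicate 2. The photosynthesis genes were higher in the other library, as given above, and their part in this difference was not tested. Within the CDKB1 and the CDKB2 pair the genes resemble each other in sequence, and how shared reads were assigned is not known.

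CDK inhibitors had the highest summed level per kb of all roles, 241 in replicate 1 and 237 in replicate 2. Of the 7 listed genes, 6 were called (55.3% of all models). The test called 3 higher in replicate 1 (27.6% of all models) and 3 in replicate 2 (27.7%). SIM (AT5G04470), which blocks mitosis in trichomes so that they endoreduplicate, had 148 and 72 counts, or 59.4 and 29.0 CPM. It was 2.05-fold higher in replicate 1 (1.54 to 2.76, adjusted p = 1.49e-06 by the exact binomial test). SMR1 (AT3G10525), also named LGO, promotes the endoreduplicated giant cells of the sepal epidermis. It had 133 and 178 counts, or 53.4 and 71.6 CPM, and was 1.34-fold higher in replicate 2 (1.07 to 1.69, adjusted p = 0.0214 by the exact binomial test). The order of the 2 genes per kb therefore changed, with SIM at 1.16 times SMR1 in replicate 1 and 0.422 times in replicate 2, while their sum was 139.6 and 123.3.

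KRP proteins bind and inhibit cyclin-CDK complexes, mainly those with CDKA. KRP2 (AT3G50630), the listed KRP gene with the highest mean, had 130 and 90 counts, or 52.2 and 36.2 CPM, and was 1.44-fold higher in replicate 1 (1.09 to 1.91). KRP1 (AT2G23430) had 33 and 14 counts, or 13.2 and 5.63 CPM, and was 2.35-fold higher in replicate 1 (1.22 to 4.76). The other 3 had more counts in replicate 2. KRP6 (AT3G19150) had 51 and 108 counts, or 20.5 and 43.5 CPM, and was 2.12-fold higher in replicate 2 (1.51 to 3.02, adjusted p = 1.97e-05 by the exact binomial test). KRP7 (AT1G49620) had 39 and 62 counts, or 15.7 and 24.9 CPM (1.59-fold higher in replicate 2, 1.05 to 2.44). KRP3 (AT5G48820), with the lowest mean of these, had 11 and 19 counts and was not called. Summed over the 5 genes, KRP stood at 101 CPM per kb in replicate 1 and 114.0 in replicate 2, so SIM and SMR1 together exceeded the listed KRP genes in both libraries, by 1.38 and 1.08 times. KRP6 also had a second model with 2 and 0 counts.

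Of the E2F and RBR genes only E2FB and DEL1 were listed. E2FB (AT5G22220), an activator of replication genes and of division, had 37 and 19 counts, or 14.8 and 7.64 CPM, and was 1.94-fold higher in replicate 1 (1.09 to 3.58, adjusted p = 0.0412 by the exact binomial test). Its other listed model was at 0 in both libraries. DEL1 (AT3G48160), an atypical E2F that represses CCS52A2 and delays endoreduplication, had 5 and 25 counts, or 2.01 and 10.06 CPM. It was 5.01-fold higher in replicate 2 (1.88 to 16.8, adjusted p = 0.000545 by the exact binomial test), at the 1.73rd percentile of ratios at 5 to 10 CPM. CCS52A1 (AT4G22910), the more abundant activator of the anaphase-promoting complex, had 117 and 90 counts, or 47.0 and 36.2 CPM, and was not called (adjusted p = 0.114). CCS52A2 (AT4G11920) had 17 and 4 counts, or 6.82 and 1.61 CPM, below the level tested, with a ratio of 4.24 (counting interval 1.38 to 17.3). DEL1 was high in the library in which CCS52A2 was low, a pattern of 2 libraries that allows no test. DEL1 also shares 307 exon bases with AT3G48170 on the opposite strand, which had 279 and 371 counts. Reads in the shared bases cannot be told apart. Per kb, CCS52A1 was 6.36 times CCS52A2 in replicate 1 and 20.8 times in replicate 2. The second ratio rests on 4 counts of CCS52A2, whose 1.61 CPM lay below the 1.91 CPM that a listed 0 allows, so its size is poorly fixed.

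All 3 listed replication factors had more counts in replicate 2. PCNA1 and PCNA2 encode the sliding clamp of DNA polymerases. PCNA1 (AT1G07370) had 25 and 54 counts, or 10.03 and 21.7 CPM, and was 2.17-fold higher in replicate 2 (1.32 to 3.63, adjusted p = 0.00261 by the exact binomial test). PCNA2 (AT2G29570) had 40 and 76 counts, or 16.1 and 30.6 CPM (1.90-fold higher in replicate 2, 1.28 to 2.87). The ratio of PCNA2 to PCNA1 per kb was 1.53 in replicate 1 and 1.34 in replicate 2, and here too reads may be shared. CDC6A (AT2G29680), which loads the replicative helicase, had 11 and 22 counts and did not pass the test (adjusted p = 0.0950 by the exact binomial test).

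**Figure D2:**
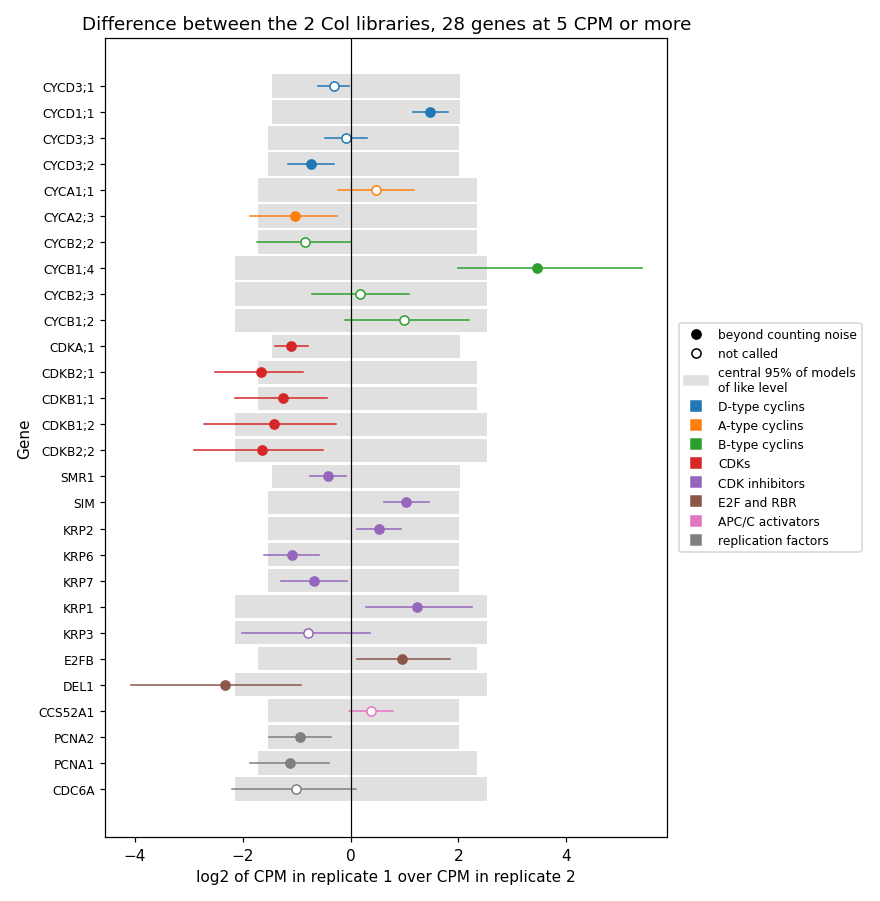
Log2 ratio of CPM in Col replicate 1 over replicate 2 for the 28 genes at 5 CPM or more, with 95% counting intervals as lines, filled circles for calls, and a grey band for the central 95% of all models of like level. The 5 CDKs and the PCNA genes lie left of 0 (higher in replicate 2), and CYCB1;4 and DEL1 lie outside their bands.

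Summed by role, CDKs and replication factors differed most between the libraries, relative to their level. D-type cyclins summed to 141.0 CPM per kb in replicate 1 and 134 in replicate 2, and A-type cyclins to 13.6 and 15.3. The listed E2F genes summed to 8.48 and 9.28. B-type cyclins stood at 33.4 and 23.7, and the CCS52A genes at 25.4 and 17.8. CDKs stood at 52.2 and 122.5, and the replication factors at 24.4 and 49.1. The ratio of inhibitors to CDKs per kb was 4.62 in replicate 1 and 1.94 in replicate 2, and that of D-type to B-type cyclins was 4.22 and 5.63. Per kb of coding sequence these sums were larger, at 460 for the inhibitors, 236 for D-type cyclins and 140.2 for CDKs as means of the 2 libraries, against 239, 137 and 87.4 per kb of transcript, in the same order.

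**Figure D3:**
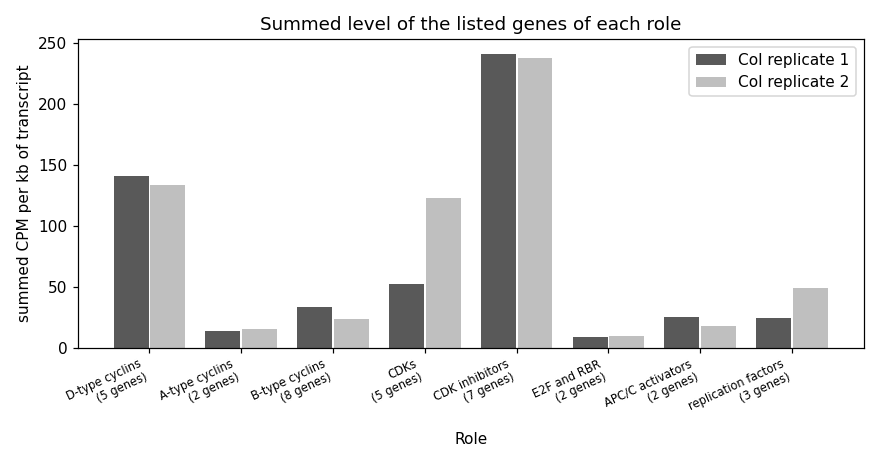
Summed level of the listed genes of each role in CPM per kb of transcript, with Col replicate 1 as dark and replicate 2 as light bars and the number of listed genes in brackets. Inhibitors and D-type cyclins are level between the libraries, while the CDK bars stand at 52.2 and 122.5.

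A further 87 cell cycle genes served as context, of which 62 had a row and 39 were tested. The test called 23 (59.0%, against 55.3% of all models). Of these, 10 were higher in replicate 1 (27.6% of all models) and 13 in replicate 2 (27.7%). The median log2 ratio of the 39 was 0.09. Of the 39, 22 had the higher level in replicate 1 and 17 in replicate 2. In what follows, highest and lowest refer to the mean of the 2 libraries per kb. Among CDK partners, the CDK-activating kinase genes CDKD;1 (3.21 and 9.66 CPM) and CDKD;3 (11.6 and 29.8 CPM) were more than 2-fold higher in replicate 2. The gene of their partner CYCH;1 (20.9 and 1.61 CPM) and the CDK-binding gene CKS1 (169.8 and 51.9 CPM) were higher in replicate 1. CKS1 had the highest mean level per kb of the set, which rested on replicate 1, at 129 ± 97.2, and CDKF;1 the lowest mean of its list, with 5 and 9 counts.

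Replication genes outside the 44 were also mixed. Of 11 tested, 5 had the higher level in replicate 1 and 6 in replicate 2. The test called 5 (55.3% of all models), 2 higher in replicate 1 (27.6%) and 3 in replicate 2 (27.7%). The 4 called at 2-fold or more (24.8% of all models) are given first. TSO2, a small subunit of ribonucleotide reductase, had 79.1 and 199.2 CPM, MCM6, of the replicative helicase, 2.41 and 8.45 CPM, and the replisome gene ETG1 7.22 and 18.9 CPM, all called and higher in replicate 2. ORC1B, of the origin recognition complex, had 20.5 and 4.02 CPM and was called higher in replicate 1. The lowest per kb was ICU2, the catalytic subunit of DNA polymerase alpha, with 9 and 3 counts. Among 9 listed mitosis and cytokinesis genes, KNOLLE, a syntaxin of the cell plate, had the highest mean per kb, with 30.1 and 17.3 CPM, though not the highest level in replicate 2. Of these 9 genes 5 were tested and 3 called (55.3% of all models), 2 higher in replicate 1 (27.6%) and 1 in replicate 2 (27.7%). MAP65-3, which bundles microtubules at the division plane, had 16.9 and 4.83 CPM. It was the only 1 of the 5 called at 2-fold or more (24.8% of all models). EDE1, a microtubule-associated protein, was lowest with 5 and 6 counts.

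Subunits and regulators of the anaphase-promoting complex went in both directions, with 4 of 8 tested called higher in replicate 1 (27.6% of all models) and 2 in replicate 2 (27.7%). HBT had 64.6 and 11.7 CPM, APC8 25.3 and 7.64 CPM and APC5 16.5 and 4.43 CPM, while APC2 had 13.2 and 31.0 CPM. OSD1, an inhibitor of the complex, had 2.41 and 9.66 CPM and was called higher in replicate 2, and its relative UVI4 was lowest with 4 and 5 counts. APC10 was highest per kb, with 44.1 and 23.7 CPM. Of the other CDK inhibitors, SMR2 had the highest mean, with 27.7 and 18.1 CPM, and KRP5 the lowest, with 4 and 2 counts. SMR6 was called higher in replicate 2, with 6.42 and 35.8 CPM, and stood above SMR2 there. Among other cyclins, CYCA1;2 was called higher in replicate 2 (3.61 and 15.7 CPM) and CYCA3;1 was lowest with 0 and 2 counts. Of the E2F relatives, DEL2 was listed at 0 in both libraries and DEL3 had 0 and 2 counts. Of the topoisomerase VI genes and ILP1, which favour endoreduplication, RHL2 was highest at 33.3 and 36.6 CPM and ILP1 lowest at 7.22 and 14.1 CPM.

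Exons of 14 of the 34 genes overlap those of another gene in the TAIR10.1 annotation, 13 of them on the opposite strand. SIM shares 249 exon bases with AT5G04475, SMR1 333 with AT3G10527, DEL1 307 with AT3G48170 and CDKB1;2 281 with AT2G38630. PCNA2 shares 279 with AT2G29560, CDKB2;2 192 with AT1G20925, CDKB1;1 71 with AT3G54190 and CDKB2;1 44 with AT1G76530, all on the opposite strand. The strand setting of the counting is not given, so reads of pairs on opposite strands cannot be told apart. CYCD3;1 shares 40 exon bases on the same strand with AT4G34150, which had 673 and 1005 counts. How reads in those bases were assigned is not given. For 5 genes (CDKB1;2, KRP3, E2FB, DEL1 and CDC6A) the most abundant listed model was isoform 2.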

How the data were processed

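The deposited values are counts of reads for each gene model with no normalization stated, and the table's headers call them raw. Per the submitters' processing notes the genome build was TAIR10. For the aligner, counter, strand setting and filters, nothing is given in the sources used here. Columns were matched to samples by title: 2 matched (Col) and 6 did not and were not used. Neither library lists a count of 1, so a listed 0 was read as at most 1 count, which allows 4.74 counts (one-sided 95% Poisson limit), 1.90 CPM in replicate 1 and 1.91 CPM in replicate 2. Libraries were scaled by TMM (edgeR 4.0.16, R 4.3.3) to CPM. The most abundant model stood for a locus. Lengths came from the TAIR10.1 annotation by model (17511 of 17921 models, and all 34 listed genes). No coordinates or sequences are printed, since that assembly is not the build named. The two-sided exact binomial test (scipy 1.17.1) used models at a mean of 5 CPM or more, Benjamini-Hochberg adjustment and a threshold of 0.05. Ratios with intervals (exact binomial) have no pseudocount, while log2 ratios add 0.5 CPM. Intervals cover counting error only. The binomial test was tried on simulated counts with planted changes and counting noise but no other spread between replicates. That trial did not cover the scaling factors, the lengths or the comparison with models of like level. The genes and lists were chosen with earlier results of these data known. Genes were named by role: the highest, the lowest and those called at 2-fold or more, with all 44 accounted for. The replicates may share plates, so p-values measure only the difference between these libraries. Scalings, filters, pseudocount, length basis and model summing were varied.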

Additional observations from a re-analysis of the deposited data

How the results depend on the processing

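The number of the 44 genes called was 19, and 18 to 21 under RLE scaling (edgeR), no scaling factor, summed models, a minimum of 1 CPM and no filter. With a minimum of 20 CPM it was 10, since only 12 of the genes were tested. Of all models, 54.4% were called under RLE scaling, 55.1% without scaling, 55.3% with summed models, 46.2% at 1 CPM or more, 41.6% without a filter and 66.7% at 20 CPM or more. All 5 CDKs stayed called in every setting but that, in which CDKA;1 alone was tested. KRP7 lost its call under RLE scaling, E2FB and KRP2 without scaling, and E2FB and KRP7 without a filter. CYCD3;1 gained a call without scaling and at 20 CPM, CYCB2;2 without scaling, and CCS52A2 and CYCB2;4 where lower levels were tested. Without scaling 4 calls were higher in replicate 1 and 15 in replicate 2. The median log2 ratio was -0.42 at 1 CPM or more, -0.36 at 20 CPM or more and -0.36 without a filter, and it stayed negative throughout. Per kb of coding sequence the role sums were 460 for inhibitors, 236 for D-type cyclins, 140.2 for CDKs, 40.1 for B-type cyclins, 31.6 for the CCS52A genes, 20.3 for A-type cyclins and 13.0 for the E2F genes, and 10 of the 10 highest genes were the same. CYCD1;1 then moved above CYCD3;1, at 83.5 against 72.0. At this depth 4 of 8 B-type cyclins and 1 of 2 CCS52A genes had fewer than 5 CPM. The number of genes at 5 CPM or more was 28, and 27 without replicate 1 and 25 without replicate 2. No paired analysis was possible because Col was the sole genotype with usable libraries.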
